A study of Rattus norvegicus and Mus musculus with 18 samples.

Results

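The 10 endothelial genes Pecam1, Cdh5, Cldn5, Emcn, Kdr, Flt1, Tek, Tie1, Vwf and Eng were followed in mouse skin wounds. They were taken by symbol from a table of 49548 mouse genes, and all 10 were found and all 10 passed the filter on low values. RNA was measured in whole tissue of adult mice, in 3 libraries of wound dermis and 3 of wound epidermis, both taken 1 day after the scab came off, when hair follicles regenerate in this species. The labels name no transgene or treatment, and they give neither strain nor sex. Nor do they say how many mice stand behind the 3 libraries of a tissue, so p-values measure only the spread between these libraries, which may be technical.

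Endothelial cells line blood and lymph vessels. The dermis carries the vessels of the skin, and the epidermis has none of its own and is fed from below. In a healing wound vessels sprout into the new dermis: VEGF ligands act through the receptors Kdr and Flt1 on endothelial cells, angiopoietins act through Tek with its partner Tie1, and Eng assists a BMP receptor complex. Cdh5, Cldn5 and Pecam1 hold neighbouring endothelial cells together.

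Kdr and Flt1 are paralogues, and so are Tek and Tie1, so the sequences below show how far a read can tell each pair apart. The lines give the 86 bases of coding sequence around the longest run of identical bases in each pair, read from GENCODE transcripts (mm10) and printed 5′ to 3′ on the coding strand, with the shared run in capitals. The run is 20 bases in Kdr and Flt1 and 18 bases in Tek and Tie1, and reads were 43 or 86 bases long.
Kdr: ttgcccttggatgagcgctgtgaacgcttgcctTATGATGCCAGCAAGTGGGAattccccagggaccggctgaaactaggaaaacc
Flt1: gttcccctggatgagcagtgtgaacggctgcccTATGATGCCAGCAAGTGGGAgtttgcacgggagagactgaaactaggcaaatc
Tek: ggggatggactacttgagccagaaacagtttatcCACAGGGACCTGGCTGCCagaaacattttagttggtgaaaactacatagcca
Tie1: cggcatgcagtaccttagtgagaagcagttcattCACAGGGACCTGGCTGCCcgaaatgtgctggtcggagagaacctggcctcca

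All 4 stretches span the junction of exons 17 and 18. The larger part of the Kdr stretch lies at chr5:75952272-75952350 on the minus strand in exon 17, and that of Flt1 at chr5:147599539-147599617 on the minus strand in exon 17. The larger part of the Tek stretch lies at chr4:94859571-94859628 on the plus strand in exon 18, and that of Tie1 at chr4:118474356-118474413 on the minus strand in exon 18. The run shared by Tek and Tie1 lies in the part that codes for the tyrosine kinase domain. In 9 of the 10 genes 0 stretches of 43 bases of the transcript examined were found in a transcript of another gene. In Eng 8 of 3380 were shared with Fpgs, a gene that overlaps it on the opposite strand. Short snoRNA and miRNA genes also lie within Eng, and Cdh5 overlaps the antisense transcript Gm29682. Neither these short genes nor Gm29682 shared a stretch of 43 bases with the transcript examined. No source used here says whether counting used strand, so reads from the 8 stretches shared with Fpgs cannot be assigned.

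Endothelial transcripts were abundant in wound dermis and near absent in wound epidermis. All 10 genes were lower in epidermis (limma, adjusted p below 0.05), where 39.3% of the 15982 genes tested were lower. Their median log2 fold change was -4.34, and that of all genes tested was -0.42. In all 10 every epidermis library lay below every dermis library, which held for 45.3% of the genes tested. In 7 of the 10 no epidermis library reached 1 TPM, so they passed the filter on low values through the dermis libraries alone, which fixes that their libraries do not overlap. The same holds for 43 of the 79 other vascular genes tested below, so counts and medians over these genes describe the values and support nothing by themselves. Summed over the 10 genes, the level was 492, 378 and 325 TPM in wound dermis replicates 1, 2 and 3. In wound epidermis replicates 1, 2 and 3 the sum was 5.34, 11.9 and 6.95 TPM. TPM gives a gene's share of all transcripts in a library, corrected for gene length, so levels of different genes can be set side by side. In whole tissue, fewer endothelial cells and less RNA per endothelial cell cannot be told apart.

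**Figure D1:**
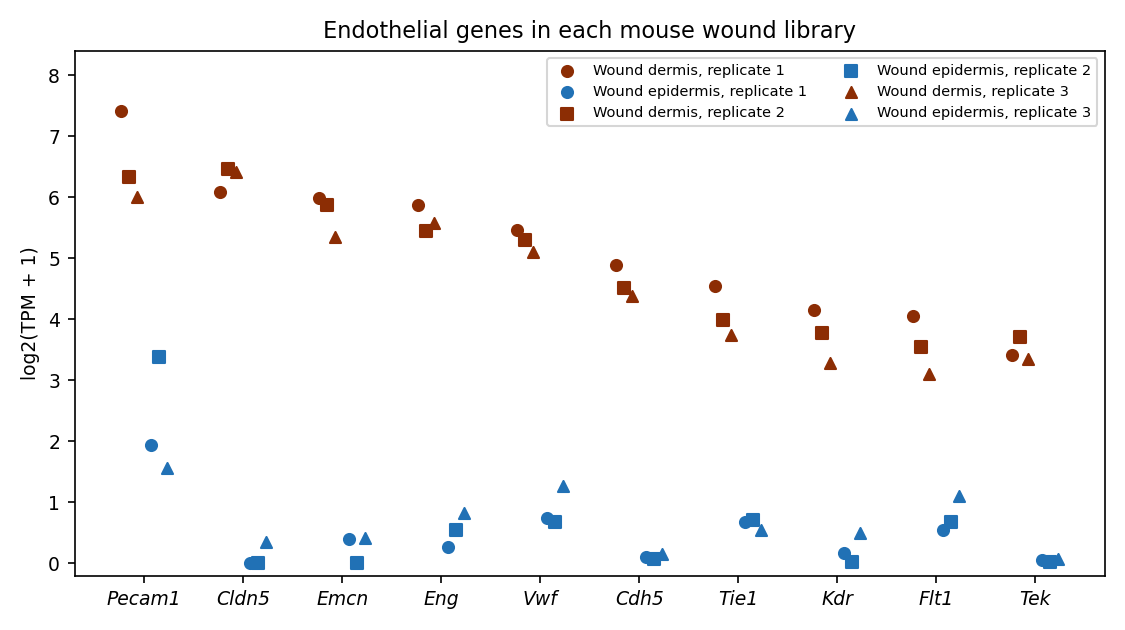
Level of each of the 10 genes, as log2(TPM + 1), in the 3 wound dermis libraries (brown) and the 3 wound epidermis libraries (blue), with a symbol per replicate number. Every dermis point lies above every epidermis point of the same gene. The highest epidermis points are those of Pecam1, which reached 9.48 TPM in replicate 2, and in replicate 3 Vwf and Flt1 reached 1.41 and 1.15 TPM.

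Pecam1 had the highest mean level in dermis. This adhesion molecule of endothelial contacts, which leukocytes and platelets also carry, stood at 169, 79.6 and 63.2 TPM in wound dermis and at 2.83, 9.48 and 1.96 TPM in wound epidermis. Dermis replicate 1 held over 2 times the level of the other dermis libraries, and epidermis replicate 2 held the most among the epidermis libraries. The log2 fold change was -4.28 ± 0.55 (SE, n = 3 each, limma adjusted p = 0.00070). Its 95% confidence interval, from -5.58 to -2.99, was the widest of the 10. Pecam1 lies on chromosome 11 from 106654217 to 106750628 on the minus strand (mm10, protein-coding, as are the other 9 genes).

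Cldn5, the claudin that seals endothelial tight junctions, stood at 66.9, 87.4 and 84.0 TPM in dermis and was listed at 0 in epidermis replicates 1 and 2 and at 0.27 TPM in replicate 3. It had the lowest fold change of the 10, at -6.21 ± 0.21 (SE, adjusted p = 1.07e-05), and replicate 1 was the lowest of the dermis libraries for this gene alone. Cldn5 is a gene of 1 exon on chromosome 16 from 18776847 to 18778262. Emcn, endomucin, a mucin-like surface protein of veins and capillaries, stood at 62.5, 57.7 and 39.8 TPM in dermis and at 0.32, 0 and 0.34 TPM in epidermis, with a log2 fold change of -5.46 ± 0.25 (adjusted p = 1.215e-05). Emcn lies on chromosome 3 from 137341067 to 137432185.

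Cdh5, VE-cadherin, the adherens junction cadherin of endothelial cells, stood at 28.7, 21.8 and 19.8 TPM in dermis. Its epidermis libraries held 0.08, 0.05 and 0.11 TPM, so that none of them reached 1% of the dermis mean. The log2 fold change was -4.48 ± 0.21 (adjusted p = 1.26e-05). Cdh5 lies on chromosome 8 from 104101625 to 104144511.

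The VEGF receptors stood lower in dermis than the junction genes. Kdr, the main signalling receptor for VEGF-A, stood at 16.7, 12.8 and 8.70 TPM in dermis and at 0.12, 0.02 and 0.42 TPM in epidermis. Flt1, which binds VEGF-A tightly with weaker kinase activity and also has a soluble form, stood at 15.7, 10.7 and 7.60 TPM in dermis and at 0.47, 0.61 and 1.15 TPM in epidermis. For both receptors the dermis libraries fell in the same order, with replicate 1 highest and replicate 3 lowest. The log2 fold change was -3.50 ± 0.28 for Kdr (adjusted p = 7.05e-05) and -2.79 ± 0.30 for Flt1 (adjusted p = 0.00029), the smallest change of the 10. The ratio of Flt1 to Kdr was 0.94, 0.84 and 0.87 in the 3 dermis libraries (0.884 ± 0.052, SD). In the epidermis libraries it was 3.92, 30.5 and 2.74, at levels near 0. The authors' values are per gene, so membrane-bound and soluble Flt1 are counted together. Kdr lies on chromosome 5 from 75932827 to 75978458 and Flt1 on the same chromosome from 147561604 to 147726011.

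The angiopoietin receptors were of similar size to the VEGF receptors. Tek, known as Tie2, stood at 9.65, 12.2 and 9.25 TPM in dermis and at 0.04, 0.02 and 0.05 TPM in epidermis. Tie1, which has no established angiopoietin ligand of its own and modulates Tek, stood at 22.3, 14.8 and 12.45 TPM in dermis and at 0.60, 0.63 and 0.46 TPM in epidermis. Tek was the more even of the pair over the dermis libraries and was highest in replicate 2, while Tie1 was highest in replicate 1. The log2 fold changes were -3.44 ± 0.19 for Tek (adjusted p = 1.75e-05) and -3.45 ± 0.25 for Tie1 (adjusted p = 4.97e-05). The ratio of Tie1 to Tek was 2.31 in dermis replicate 1 and 1.22 and 1.35 in replicates 2 and 3. Tek lies on chromosome 4 from 94739289 to 94874976 and Tie1 on the same chromosome from 118471191 to 118490061.

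Vwf, the clotting protein that endothelial cells store and release, stood at 43.3, 38.2 and 33.5 TPM in dermis and at 0.68, 0.61 and 1.41 TPM in epidermis. Eng, endoglin, a co-receptor for BMP9 and TGF-beta that some macrophages and stromal cells also carry, stood at 57.4, 42.7 and 47.0 TPM in dermis and at 0.20, 0.46 and 0.78 TPM in epidermis. Epidermis replicate 3 held the most of both. Vwf changed by -4.39 ± 0.24 (adjusted p = 1.73e-05) and Eng by -5.09 ± 0.23 (adjusted p = 1.21e-05). The ratio of Vwf to Cdh5 was steady over the dermis libraries, at 1.51, 1.75 and 1.69, while that of Pecam1 to Cdh5 was 5.88, 3.64 and 3.19. Vwf lies on chromosome 6 from 125546774 to 125686679 and Eng on chromosome 2 from 32646595 to 32682669.

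**Figure D2:**
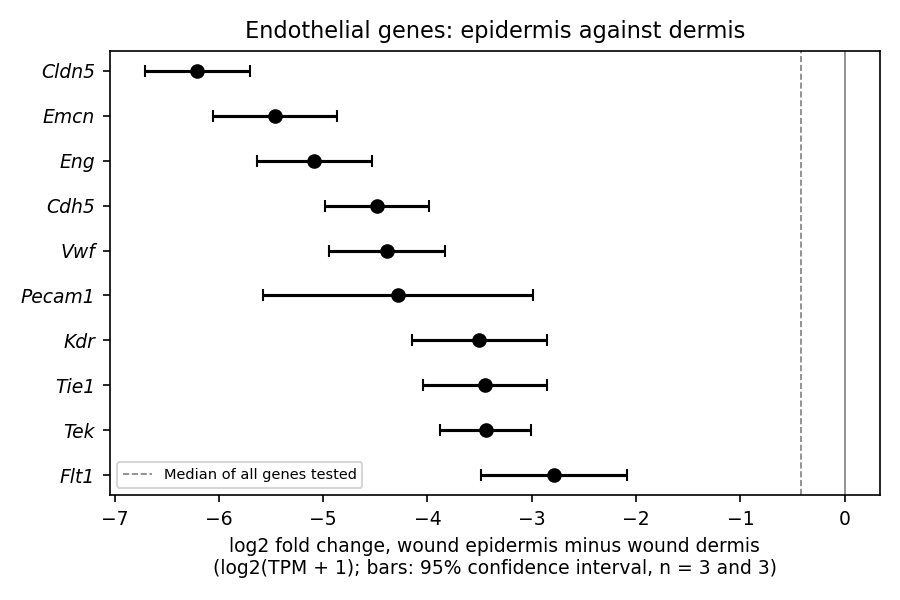
Log2 fold change of each gene, wound epidermis minus wound dermis, on the log2(TPM + 1) scale, with 95% confidence intervals from limma (n = 3 and 3). The points run from -6.21 for Cldn5 to -2.79 for Flt1, and every interval lies below the median of all genes tested, drawn as a dashed line at -0.42.

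The size of these fold changes depends on the pseudocount, because the epidermis values lie near 0. With log2(TPM + 0.1) the changes ran from -3.78 for Flt1 to -9.00 for Cldn5, and Cdh5 stood at -7.03 and Tek at -6.25. Under quantile normalization 4 of the 10 moved toward 0 by over 1.5 times, with Kdr at -2.85, Flt1 at -2.11, Tek at -2.80 and Tie1 at -2.79, while the median of all genes moved from -0.42 to 0.08.

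In wound dermis the 10 genes fell in the order Pecam1 (104 ± 57 TPM, SD, n = 3), Cldn5 (79.5 ± 11.02), Emcn (53.3 ± 11.9), Eng (49.0 ± 7.6), Vwf (38.3 ± 4.9), Cdh5 (23.5 ± 4.7), Tie1 (16.5 ± 5.1), Kdr (12.7 ± 4.0), Flt1 (11.3 ± 4.1) and Tek (10.4 ± 1.6). Neighbours in this order overlapped between libraries except at 2 steps, from Cldn5 to Emcn and from Vwf to Cdh5. These 2 steps set Pecam1 and Cldn5 above Emcn, Eng and Vwf, and those above Cdh5, Tie1, Kdr, Flt1 and Tek. Spread between the dermis libraries was smallest for Vwf, with a coefficient of variation of 12.8%, and largest for Pecam1, at 54.8%.

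What remained in epidermis differed from gene to gene. As a share of the dermis mean, the epidermis mean was 0.113% for Cldn5, 0.341% for Cdh5, 0.354% for Tek, 0.413% for Emcn and 0.979% for Eng. It was 1.47% for Kdr, 2.35% for Vwf, 3.41% for Tie1, 4.58% for Pecam1 and 6.56% for Flt1. In 8 of the 10 genes the highest epidermis library was replicate 3. The exceptions were Pecam1 and Tie1, which were highest in replicate 2. Without Pecam1 the summed level was 2.51, 2.40 and 4.99 TPM in epidermis replicates 1, 2 and 3, so that replicate 2 was the lowest of them.

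**Figure D3:**
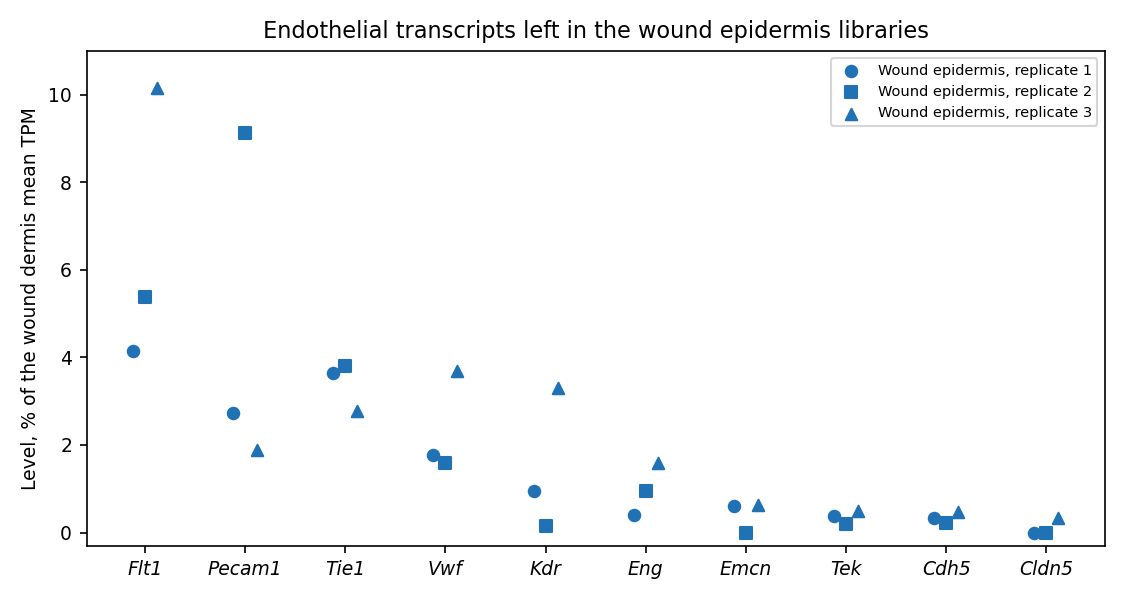
Level of each gene in the 3 wound epidermis libraries, as a percentage of its mean TPM in wound dermis, with a symbol per replicate. Flt1 in replicate 3 (10.1%) and Pecam1 in replicate 2 (9.13%) stand highest, while Cldn5, Cdh5, Tek and Emcn stay below 1% in every library.

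Markers of other cell types moved between the same libraries. All 8 fibroblast markers were lower in epidermis, with a summed level of 44147 to 68648 TPM in dermis and 23.3 to 124 TPM in epidermis, among them Lum (-9.74), Dcn (-9.70) and Pdgfra (-4.58). Their median level in epidermis was 0.067%, 0.017% and 0.19% of the dermis mean in replicates 1, 2 and 3, while that of the 10 endothelial genes was 0.77%, 0.58% and 1.74%. Pecam1 and Tie1 were highest in epidermis replicate 2, where the summed fibroblast level was lowest (23.3 TPM). The other 8 endothelial genes were highest in replicate 3, where the summed fibroblast level was highest (124 TPM). Fbln1, a fibroblast marker that changed by -1.45, held 20.85, 13.5 and 19.2 TPM of this sum in epidermis replicates 1, 2 and 3. All 8 macrophage markers were lower too, at 683 to 1187 TPM in dermis and 56.6 to 75.5 TPM in epidermis, among them C1qb (-6.42), C1qc (-6.48) and Mrc1 (-5.22). Cd68, which changed by -1.755, held most of that epidermis level, at 44.4, 68.5 and 52.9 TPM in replicates 1, 2 and 3. Macrophage markers in epidermis stood at a median of 1.32%, 0.37% and 1.16% of the dermis mean. No marker of either list was at 0 in all epidermis libraries. The part of these cells in the endothelial values was not tested.

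The epidermis libraries carried the markers of their labelled tissue, and keratinocyte markers were also present in the dermis libraries. Of 9 keratinocyte markers 8 were higher in epidermis, among them Krtdap (4.35), Perp (4.07) and Krt10 (5.34), and Dsg3 did not pass at 1.67 (adjusted p = 0.067), though it did without epidermis replicate 2 (2.13, adjusted p = 0.045) and under median-of-ratios scaling (1.86) and quantile normalization (2.22). Their summed level was 52847 to 79562 TPM in epidermis and 576 to 16181 TPM in dermis. The highest dermis library was replicate 2, with a median marker level of 25.9% of that in epidermis. In replicate 1 this was 7.11% and in replicate 3 it was 1.10%. Krt10 stood at 7.02, Krtdap at 5.52 and Perp at 5.08 if dermis replicate 2 was dropped, and the 3 stood at 4.32, 3.28 and 2.93 if dermis replicate 3 was dropped. Several of these calls were lost under other settings. Without dermis replicate 1, Krt10 (4.68, adjusted p = 0.053), Krt1 (4.78, adjusted p = 0.056) and Krt5 (2.90, adjusted p = 0.074) missed the threshold. With no filter, Krt5 (adjusted p = 0.066) and Krt14 (adjusted p = 0.064) missed it. They also did so without epidermis replicate 1 (adjusted p = 0.064 for Krt5 and 0.051 for Krt14) and without epidermis replicate 3 (0.076 and 0.067). The part of these cells in the endothelial values of dermis was not tested. The most abundant gene, Actb, took 10.9% to 15.6% of all TPM in dermis and 3.57% to 4.53% in epidermis, and being shares, the other values move with it. With replicate 2 of both groups left out, all 10 endothelial genes were still lower (largest limma adjusted p = 0.0037), and Pecam1 stood at -4.95.

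Within dermis, 7 of the 10 genes were highest in replicate 1, intermediate in replicate 2 and lowest in replicate 3. Among the 79 other vascular genes tested, 28 had this order. The share over all genes tested was not computed. Of the 10, 8 were highest in replicate 1 and 8 lowest in replicate 3. Cldn5 and Tek were highest in replicate 2, Cldn5 was lowest in replicate 1 and Eng lowest in replicate 2. The median deviation from each gene's dermis mean was 0.27, -0.01 and -0.28 on the log2 scale in replicates 1, 2 and 3. Other pan-endothelial genes stood at 0.125, -0.02 and -0.10, and arterial and venous genes at -0.01, 0.01 and 0.12. The median of 7 pericyte markers, from the cells that wrap small vessels, was 0.20, 0.09 and -0.14, but only Rgs5 and Abcc9 among them had that order gene by gene. Fibroblast markers stood at 0.02, -0.37 and 0.28 and macrophage markers at -0.08, -0.38 and 0.46. Both lists were highest in replicate 3, where 8 of the 10 endothelial genes were lowest. Because 3 libraries were compared, these deviations are given as a description.

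**Figure D4:**
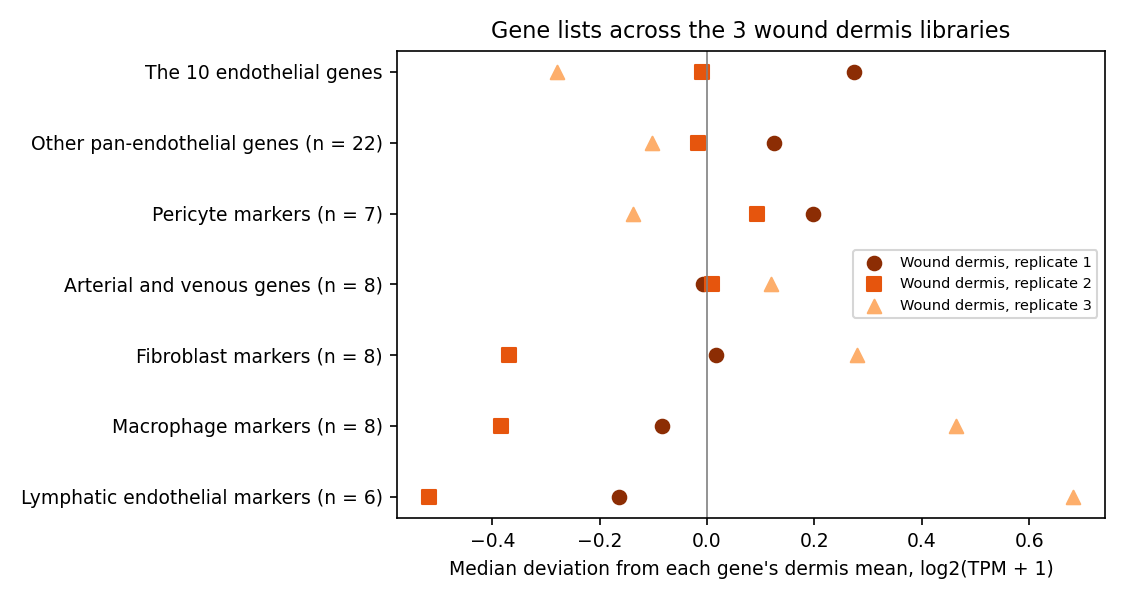
Median deviation of each gene list from its genes' dermis means, on the log2(TPM + 1) scale, in the 3 wound dermis libraries. The medians of the 10 endothelial genes, the other pan-endothelial genes and the pericyte markers are highest in replicate 1, while those of the arterial and venous genes and of fibroblast, macrophage and lymphatic endothelial markers are highest in replicate 3.

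The median of the lymphatic endothelial markers had another order in dermis, at -0.16, -0.52 and 0.68 in replicates 1, 2 and 3. Of the 6 tested, 5 were highest in replicate 3. Flt4 stood at 20.1, 15.7 and 17.3 TPM and was highest in replicate 1. All 6 tested lymphatic markers were lower in epidermis, with a median of -3.38. Ccl21a, a chemokine of lymphatic vessels, stood at 71.1, 55.8 and 171 TPM in dermis and at 0.07, 0 and 0 TPM in epidermis (-6.44 ± 0.40, adjusted p = 2.72e-05). Flt4, the VEGF-C receptor of lymphatic cells, changed by -3.97 and Mmrn1 by -2.97. Prox1, the transcription factor that sets lymphatic identity, did not pass the filter. Pdpn, which fibroblasts and keratinocytes also make, held most of this list's level, at 207 to 506 TPM in dermis and 6.69 to 60.1 TPM in epidermis. It changed by -3.79, by -3.03 without epidermis replicate 2 and by -4.52 without epidermis replicate 3.

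The VEGF ligands split between the tissues. Of 8 VEGF ligands and co-receptors 6 were lower in epidermis and 1 was higher, with a median of -2.72. Over all genes tested 17% were higher. Vegfa, the main ligand of Kdr and Flt1, was the one that rose. It stood at 9.07, 26.6 and 9.04 TPM in epidermis and at 1.13, 2.74 and 1.27 TPM in dermis, with no overlap between the groups (2.42 ± 0.45, adjusted p = 0.0034), and at 3.04 under quantile normalization. In each epidermis library Vegfa exceeded the Kdr and Flt1 levels together, while in each dermis library it lay below either receptor. The co-receptor Nrp1 changed by -5.36, Flt4 by -3.97 and Nrp2 by -3.60. The ligands Vegfc, Pgf and Vegfb were lower, at -2.80, -2.63 and -1.40, and Vegfd did not pass at -0.59 (adjusted p = 0.23).

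Of 5 tested angiopoietin and Tie partners 4 were lower in epidermis, with a median of -2.65. Angpt2, the ligand that endothelial cells release to loosen Tek signalling, stood at 23.5, 20.1 and 20.6 TPM in dermis and at 0.37, 0.21 and 1.28 TPM in epidermis (-3.84 ± 0.28, adjusted p = 4.84e-05). Ptprb, the endothelial phosphatase that acts on Tek, changed by -3.68 and the matrix protein Svep1 by -2.57. Foxo1, which acts downstream of Tek, did not pass at -0.17 (adjusted p = 0.49) and stood at 0.08 under median-of-ratios scaling and 0.53 under quantile normalization, and Angpt4 did not pass the filter.

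Of 9 tested genes of the BMP9, ALK1 and endoglin pathway 6 were lower in epidermis, with a median of -2.09. Acvrl1, which codes for ALK1, the endothelial receptor that Eng assists, changed by -3.41 ± 0.22 (adjusted p = 2.875e-05), Tgfbr2 by -2.88 and Tgfb1 by -1.9985. Bmpr2, Id1 and Smad7 did not pass, at -0.32, 0.50 and 0.47. Quantile normalization put Id1 at 0.96 (adjusted p = 0.030), Smad7 at 1.09 (adjusted p = 0.018) and Bmpr2 at 0.12 (adjusted p = 0.61). Without epidermis replicate 3 Smad7 stood at the threshold (0.69, adjusted p = 0.0504, or 0.0494 with the tested genes held fixed). The circulating ligands Gdf2, which codes for BMP9, and Bmp10 were listed at 0 in all 6 libraries, and they and Smad6 did not pass the filter.

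Among 16 tested transcription factors of endothelial development 13 were lower and 3 higher in epidermis, with a median of -2.58. Nr2f2, a factor of venous identity that stromal cells also express, fell furthest, from 375, 214 and 181 TPM in dermis to 1.75, 0.32 and 1.93 TPM in epidermis (-6.80 ± 0.40, adjusted p = 2.21e-05). The ETS factor Fli1 changed by -5.10 and the SoxF factor Sox17 by -4.17. Sox7, another SoxF factor, went the other way, at 81.7, 74.45 and 67.2 TPM in epidermis and 18.4, 36.4 and 9.42 TPM in dermis (1.94 ± 0.44, adjusted p = 0.0077). Klf4, which is also a factor of differentiating keratinocytes, rose by 2.28 and Ets2 by 0.89. Etv2 and Foxc2 did not pass the filter.

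**Figure D5:**
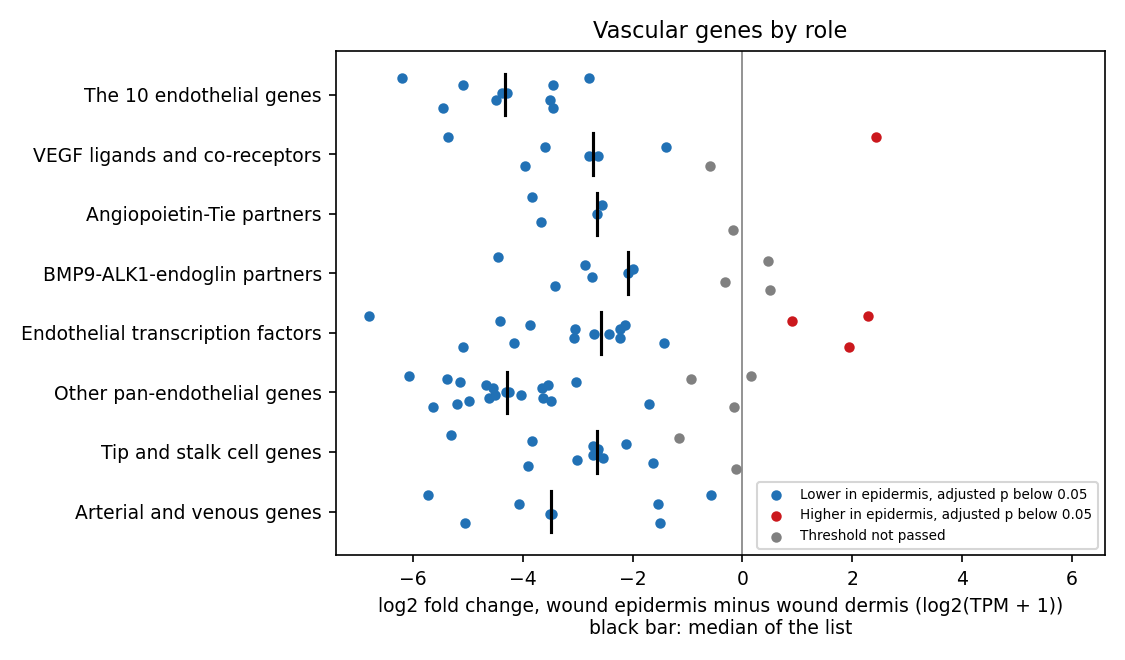
Log2 fold change, wound epidermis minus wound dermis, of the 10 endothelial genes and of the tested genes of 7 vascular lists, with the median of each list as a black bar. Blue points are lower and red points higher in epidermis at an adjusted p below 0.05, and grey points did not pass; the red points are Vegfa, Ets2, Sox7 and Klf4.

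Other genes known from endothelium at large were also low in epidermis. Of 22 such genes 19 were lower in epidermis, with a median of -4.28, and Tjp1, Thbd and Procr did not pass at -0.16, 0.16 and -0.94. Clec14a, a vessel surface lectin, changed by -4.61, Ecscr by -4.98 and Ramp2, a partner of the adrenomedullin receptor, by -4.54. Tjp1 stood at 0.12 under median-of-ratios scaling and 0.36 under quantile normalization, Thbd stood at -0.18 without dermis replicate 3 and -0.20 without epidermis replicate 3, and Procr passed without epidermis replicate 3 (-1.15, adjusted p = 0.049).

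Of 13 tested tip and stalk cell genes, which mark the leading and trailing cells of a vessel sprout, 11 were lower in epidermis, with a median of -2.66. Aplnr, the apelin receptor, changed by -5.30, its ligand Apln by -3.02 and the Notch target Hey1 by -2.73. Notch1 and Jag1 did not pass, at -0.13 and -1.15, and Hey2 did not pass the filter. Notch1 stood at 0.10 without epidermis replicate 2 and under median-of-ratios scaling and at 0.62 under quantile normalization (adjusted p = 0.046), and Jag1 passed without epidermis replicate 3 (-1.57, adjusted p = 0.023).

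All 8 tested arterial and venous genes were lower in epidermis, with a median of -3.49. Ackr1, a chemokine-binding receptor of venules, stood at 38.2, 56.8 and 70.8 TPM in dermis and at 0, 0 and 0.07 TPM in epidermis (-5.74 ± 0.26, adjusted p = 1.165e-05). The adhesion molecules Vcam1 and Selp changed by -5.06 and -3.48. The arterial ligand Efnb2, at -0.58 (adjusted p = 0.026), was the weakest. Quantile normalization (-0.15, adjusted p = 0.47) and median-of-ratios scaling (-0.295, adjusted p = 0.16) ended its call. So did leaving out dermis replicate 1 (adjusted p = 0.060), 2 (0.0796) or 3 (0.083), epidermis replicate 1 (0.082), or replicate 2 of both groups (0.099). Bmx, Sema3g and Sele did not pass the filter.

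Over the 7 vascular lists, with each gene counted once and the 10 left out, 65 of 79 tested genes were lower in epidermis, 4 were higher and 10 did not pass, with a median of -3.02. Of the 65 and 4 called genes together, 67 kept their call under quantile normalization, where Efnb2 and Vegfb (-0.65, adjusted p = 0.12) lost it. The size of the changes was less steady than the calls: 37 of the 79 moved by over 1.5 times under quantile normalization, 35 with log2(TPM + 0.5) and 53 with log2(TPM + 0.1).

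The genes whose levels over the 6 libraries lay closest to the mean profile of the 10 were Mmrn2, Cplx2, Hoxd3os1, Sox17 and Cox4i2, by the Euclidean distance between log2(TPM + 1) profiles centred on each gene's mean. Mmrn2, an endothelial matrix protein, lay closest at a distance of 0.109, with 31.15, 25.3 and 22.4 TPM in dermis and 0.32, 0.46 and 0.48 TPM in epidermis. The other 4 lay at 0.304 to 0.336. Mmrn2 and Sox17 were on the vascular lists, and Cplx2, Hoxd3os1 and Cox4i2 were on none. The difference between the tissues weighs most in this distance, so it says little about the order within a tissue.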

How the data were processed

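The deposited values are TPM per gene and library, which the authors computed. Bowtie 1.0.0 and RSEM 1.2.31 with the build mm10 are named per the submitters' processing notes, and the annotation and settings were not stated there. Libraries were made by SMART-seq2, a full-length cDNA method, from 10 ng or 100 ng of RNA and read to 86 or 43 bases, per the labels' protocols, which do not say which library had which. Read depth cannot be had from TPM, so counting error is not given.

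Mouse identifiers were paired with symbols (49289 of 49548; all 150 listed genes matched). Rat libraries were not used here. A gene was kept if 3 or more of the 6 libraries reached 1 TPM, and log2(TPM + 1) was fitted with limma 3.58.1 in R 4.3.3 with the mean-variance trend. P-values were adjusted by Benjamini-Hochberg over 15982 genes, with a threshold of 0.05, and the fit was tested on simulated data. Log2 fold changes are epidermis minus dermis and understate the change of genes near 1 TPM.

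The 10 genes and all lists were chosen with earlier results of these data known. Text names the 10 genes and the 3 genes per list with the smallest adjusted p. It also names genes called against their list, genes below the filter and the 5 closest profiles. Genes that did not pass, Efnb2, Vegfb, Vegfc, Pgf, Pdpn, Rgs5, Abcc9, Cd68, Fbln1, Krt1, Krt5 and Krt14 were named after their values were seen. Alternatives were other pseudocounts, filters, scalings and variance models, a replicate block and leaving out each library.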

Additional observations from a re-analysis of the deposited data

How the results depend on the processing

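All 10 genes stayed lower and past the threshold in every alternative that tested them, 199 fits of a gene in all, with a largest limma adjusted p of 0.0062. Their median log2 fold change was -5.97 with a pseudocount of 0.1, -4.64 with 0.5, -4.09 under median-of-ratios scaling, -3.87 under quantile normalization and -4.55 without the 50 most abundant genes. With each library left out in turn it ran from -4.48 to -3.87 with the filter applied anew and from -4.53 to -4.08 with the tested genes held fixed. The ends of the first range, without dermis replicate 3 and 1, are medians of only 3 tested genes. Over all fits that left out 1 library, 3 to 10 of the 10 genes were lower, against 10. For the other vascular genes this was 21 to 67, against 65, and for all genes 3256 to 6406, against 6275. The low ends came without wound dermis replicate 1, 2 or 3 with the filter applied anew, since genes near 0 in epidermis then cannot reach 1 TPM in 3 libraries: only Pecam1, Flt1 and Vwf were tested, and 36 of the other vascular genes. With the tested genes held fixed all 10 were lower in each of these fits. Genes higher in epidermis made up 30.2% of all called genes, 41.8% under median-of-ratios scaling and 52.8% under quantile normalization. The labels give both groups the same replicate numbers but state no pairing, so the numbers were not taken as pairs. Deviations of same-numbered libraries correlated at -0.14, 0.09 and 0.19, and those of differently numbered libraries at -0.20 to 0.12. These correlations cannot show whether 2 libraries come from the same mouse. With the replicate block 10 of 10 genes, 64 other vascular genes and 5940 of all genes were lower, and of the called vascular genes Efnb2 missed the threshold (adjusted p = 0.069). Leaving out replicate 2 of both groups was added after the data were seen. Depth is unknown, so levels below about 1 TPM have unknown counting error.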

Other observations

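Of 4 tested platelet and megakaryocyte markers 2 were lower in epidermis and 1 was higher. Pf4, a platelet chemokine that macrophages can also express, stood at 142, 108 and 205 TPM in dermis and at 0.38, 0 and 0.40 TPM in epidermis (-6.89 ± 0.29, limma adjusted p = 1.07e-05), and Itgb3 changed by -2.44. Gp1bb was higher in epidermis, at 12.6, 14.2 and 6.6 TPM against 1.31, 1.67 and 1.65 TPM. Ppbp reached at most 0.59 TPM, Gp9 0.14, Gp1ba 0.23 and Gp6 0.18 TPM in any library. Itga2b stood at 3.25, 5.3 and 13.7 TPM in dermis and at 2.65, 2.17 and 5.67 TPM in epidermis and did not pass (-0.78, adjusted p = 0.22). Platelets also carry Vwf and Pecam1, and their part in the values of those genes was not tested. All 3 tested red blood cell markers were lower in epidermis. Hba-a2 stood at 40.8, 9.83 and 42.9 TPM in dermis, with replicate 2 the lowest, and at 0.88, 1.28 and 3.44 TPM in epidermis (-3.34 ± 0.60, adjusted p = 0.0029), or -4.003 without dermis replicate 2. Hbb-bs changed by -2.90 and Hba-a1 by -2.37, or -2.98 without dermis replicate 2. Quantile normalization put them at -2.21 and -1.64, both past the threshold. Hbb-bt, Alas2 and Slc4a1 did not pass the filter.

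Of 7 pericyte markers 6 were lower in epidermis, with a median of -3.52. Pdgfrb changed by -4.49, Mcam, which endothelial cells share, by -4.31 and Kcnj8 by -3.52. Notch3 did not pass at 0.35 (adjusted p = 0.21), stood higher in every epidermis library than in any dermis library, and passed under quantile normalization (0.98, adjusted p = 0.014).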
